A study of Mus musculus with 6 samples.

Results

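The 10 genes studied here mark lipid- and scar-associated macrophages, and their RNA was measured in mouse liver: Gpnmb, Trem2, Itgax, Lpl, Fabp5, Mmp12, Spp1, Lgals3, Cd9 and Cd63. They are 10 of the 24421 gene symbols counted, and all 10 had enough reads to be tested. The genes were selected on known macrophage biology with the SS to AS results of these same libraries already in view. Their differences between genotypes are therefore given as a description, with no p-value, and the calls of single members come from a fit across all genes.

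The livers came from Townes mice aged 7 months, which make human in place of mouse adult globin chains. The AS mice, the controls, carried Hbatm1(HBA)Tow and, at the beta-globin locus, the sickle allele Hbbtm2(HBG1,HBB*)Tow opposite the normal allele Hbbtm3(HBG1,HBB)Tow. The SS mice carried Hbatm1(HBA)Tow with Hbbtm2(HBG1,HBB*)Tow, so that the controls shared the human alpha-globin allele and 1 sickle allele with them. Total RNA of liver was sequenced in 3 libraries per genotype. Sex, litter and batch are not in the labels, nor is whether each library is a different animal, so p-values cover only the spread between the 6 libraries at hand, which may be technical.

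Lipid-associated macrophages are cells of monocyte origin that gather where lipid or dying cells accumulate, and scar-associated macrophages are a closely related state found beside collagen in fibrotic liver. TREM2 is a surface receptor for lipids and lipoproteins that signals through the adaptor TYROBP, and its activation goes with a programme of lipid uptake, lysosomal digestion and matrix remodelling to which the other genes belong. Resident liver macrophages, the Kupffer cells, carry other markers such as Clec4f and Timd4 and express little of this programme in healthy liver.

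Gene reads per library ran from 6670011 to 13700194. Hepatocyte transcripts dominated every library, with Alb alone at 49637 to 85540 CPM (reads of a gene scaled to a common library size). The adult mouse globin genes had 0 reads in all 6 libraries. AS replicates 2 and 3 differed far less from each other (chi-square 3.98 per gene) than any other pair did (27.9 to 170). AS replicate 1 and SS replicate 3 lay at the ends of the first principal component (41.6% of the variance), on opposite sides.

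The regions upstream of the transcription start are shown for 5 genes, because the members differ in which letters of macrophage transcription factor motifs stand there. Each run is the 250 bases before the start on the coding strand, 5′ to 3′, from RefSeq on GRCm38.p6, which has the coordinates of mm10. Capitals mark the AP-1 motif TGANTCA and the PU.1 motif GAGGAAGT, searched on both strands. Gpnmb is shown as the gene with the widest difference between genotypes, Mmp12, Trem2 and Itgax for an AP-1 match and Spp1 for a PU.1 match.
Gpnmb, chr6:49036268-49036517, plus strand: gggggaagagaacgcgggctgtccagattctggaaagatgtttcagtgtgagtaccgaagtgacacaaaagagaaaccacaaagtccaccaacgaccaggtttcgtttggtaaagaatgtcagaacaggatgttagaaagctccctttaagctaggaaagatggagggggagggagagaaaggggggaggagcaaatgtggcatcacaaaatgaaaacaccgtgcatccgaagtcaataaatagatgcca
Mmp12, chr9:7347124-7347373, plus strand: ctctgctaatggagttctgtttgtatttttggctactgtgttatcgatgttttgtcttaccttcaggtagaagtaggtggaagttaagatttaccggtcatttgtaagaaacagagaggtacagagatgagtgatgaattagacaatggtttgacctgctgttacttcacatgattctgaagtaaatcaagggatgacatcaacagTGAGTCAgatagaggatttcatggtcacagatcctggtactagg
Trem2, chr17:48346151-48346400, plus strand: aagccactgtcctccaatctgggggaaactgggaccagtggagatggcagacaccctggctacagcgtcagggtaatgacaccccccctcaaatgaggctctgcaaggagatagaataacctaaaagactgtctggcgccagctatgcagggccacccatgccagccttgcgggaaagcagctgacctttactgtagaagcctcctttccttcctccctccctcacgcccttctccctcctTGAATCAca
Itgax, chr7:128129300-128129549, plus strand: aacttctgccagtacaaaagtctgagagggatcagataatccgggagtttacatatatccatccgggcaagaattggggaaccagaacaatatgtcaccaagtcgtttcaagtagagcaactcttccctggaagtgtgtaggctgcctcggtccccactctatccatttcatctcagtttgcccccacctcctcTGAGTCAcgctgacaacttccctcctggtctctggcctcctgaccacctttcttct
Spp1, chr5:104434861-104435110, plus strand: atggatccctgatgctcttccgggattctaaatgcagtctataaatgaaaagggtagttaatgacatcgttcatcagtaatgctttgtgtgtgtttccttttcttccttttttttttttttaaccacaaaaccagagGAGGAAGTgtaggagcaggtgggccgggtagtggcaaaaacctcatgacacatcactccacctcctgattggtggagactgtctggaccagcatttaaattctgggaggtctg

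Of the members, 8 matched an entry in the RefSeq promoter table, with 10 starts in all, since Mmp12 and Spp1 have more than 1. The AP-1 letters stood in 3 of the 10 windows, against 6.75% of all 32851 promoter windows of the same length. They lay 44 to 38 bases before the start in Mmp12, 56 to 50 in Itgax and 9 to 3 in Trem2. That Mmp12 window lies inside the annotated gene, which begins at 7344381. The window of the other Mmp12 start (7344147 to 7344396) had no AP-1 match. Windows of Cd63, Lgals3 and the other Spp1 start, not printed above, also lie inside their annotated genes. PU.1 letters stood in 2 windows, Spp1 (113 to 106 bases before the start) and the other start of Mmp12, against 2.44% of all windows. The E-box CACGTG, read by the MiT/TFE factors of lysosomal genes, stood in 0 of the 10 windows and in 6.02% of all windows. The related M-box TCATGTG stood in 1 window, the Mmp12 window printed above, and in 3.25% of all; none of these matches in the members overlapped another motif. The Gpnmb window held none of these letters, which says nothing about the factors that bind there.

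SS liver was compared with AS liver gene by gene with edgeR's quasi-likelihood test, and p-values were adjusted by Benjamini-Hochberg over 12622 genes. Genes under 0.05 are named called here; they were 0.967% of genes in either direction and 0.911% with a higher value in SS. At an unadjusted p under 0.05 in the same edgeR test, 1151 of the 12622 genes were higher in SS and 452 lower. The unadjusted counts given below for single lists are to be read against these. Of the 10 macrophage genes, 7 were called higher in SS and none lower: Gpnmb, Mmp12, Trem2, Lpl, Itgax, Lgals3 and Cd63. The other 3, Cd9, Spp1 and Fabp5, had higher fitted values and were not called. DESeq2 also called 7 members higher, against 1.92% of its genes. Since the members were proposed from this contrast, nothing is read from their share. Their median log2 change was 2.04, against 0.08 over all genes tested. In 9 of the 10 genes the 3 SS libraries all lay above the 3 AS libraries, which held for 12.1% of all genes tested; Fabp5 was the exception. In bulk liver, a change in the number of macrophages and a change in RNA per macrophage cannot be told apart.

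**Figure D1:**
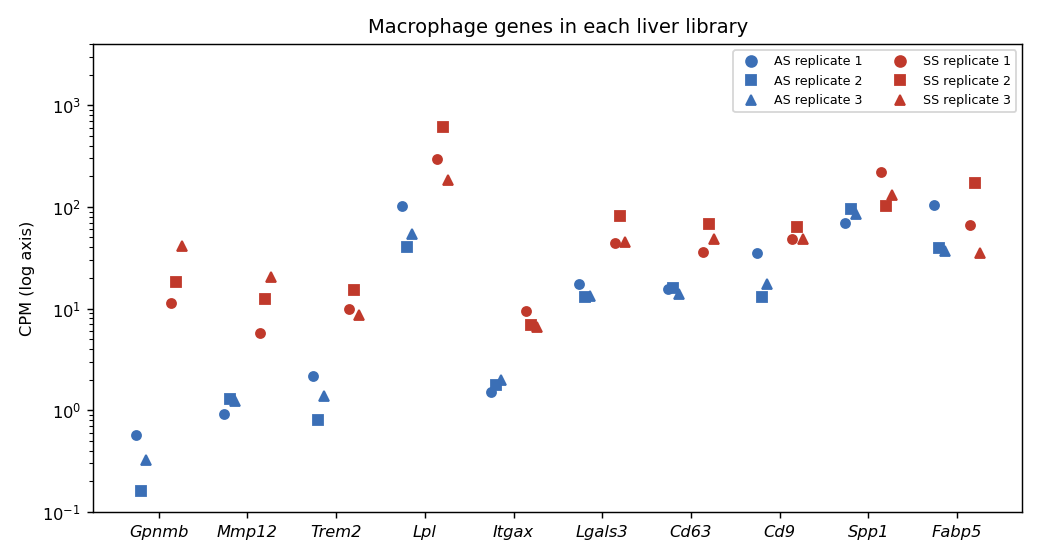
CPM of each gene (log axis) in the 3 AS libraries (blue) and the 3 SS libraries (red), with 1 marker shape per replicate number. The SS points lie above the AS points in every gene except Fabp5, and the gap is widest in Gpnmb, where the lowest SS library stood 19.7 times above the highest AS library.

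Of the surface proteins, Gpnmb had the widest difference. Gpnmb, a transmembrane glycoprotein of lipid-laden macrophages and bone cells, lies on chromosome 6 (49036546 to 49070929, plus strand, mm10). It had 0.576, 0.161 and 0.327 CPM in AS replicates 1, 2 and 3 and 11.3, 18.1 and 41.6 CPM in SS replicates 1, 2 and 3. Gpnmb was thus close to undetected in AS liver, with 5, 1 and 4 reads, and clearly present in each SS library, with 86, 249 and 532 reads. The ratio of its summed normalized reads was 68.9, with a 95% exact counting interval of 37.3 to 144 that covers counting error only. The fitted log2 change was 5.97 (SE 0.645), which was 5.27 without SS replicate 3, the library that held the most Gpnmb. Gpnmb was the only member called in each of the 6 fits with 1 library omitted.

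Trem2, the lipid receptor of the programme (chromosome 17, 48346401 to 48354147), had 2.19, 0.805 and 1.39 CPM in the AS libraries and 9.90, 15.3 and 8.69 CPM in the SS libraries. The groups did not overlap, and the lowest SS value was 3.97 times the highest AS value. Its log2 change was 2.92 (SE 0.469). Tyrobp, which encodes the adaptor that TREM2 needs to signal, had 46.5, 23.2 and 25.9 CPM in AS liver against 26.5, 79.6 and 36.6 CPM in SS liver, so the adaptor overlapped between genotypes where the receptor did not. Tyrobp was named after its values were seen, and its log2 change of 0.58 (SE 0.419) did not reach a call (adjusted p = 0.582 by edgeR).

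Itgax encodes CD11c, the alpha chain of an integrin found on dendritic cells and on recruited macrophages (chromosome 7, 128129547 to 128150657). Its levels were 1.50, 1.77 and 1.96 CPM in AS liver against 9.50, 6.89 and 6.65 CPM in SS liver. The groups were apart by 3.39-fold at their nearest points, and SS replicate 1 was the highest, where Gpnmb was lowest among the SS libraries. The log2 change was 2.12 (SE 0.423), and the call ended in each of the 6 fits with 1 library omitted. Summed dendritic cell markers (7 genes) ran from 10.1 to 17.4 CPM in AS and from 21.2 to 23.5 CPM in SS, and 0 of the 5 tested were called by edgeR or DESeq2 (0 at an unadjusted p under 0.05); their part in the Itgax difference was not tested.

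The lipid genes Lpl and Fabp5 did not share a pattern. Lpl, the lipase that frees fatty acids from circulating lipoproteins (chromosome 8, 68880491 to 68907448), is scarce in adult hepatocytes. It had 101, 40.1 and 54.2 CPM in AS liver against 294, 617 and 183 CPM in SS liver, and its log2 change was 2.49 (SE 0.486). The groups did not overlap, and SS replicate 2 was far above the other SS libraries. Without it the log2 change was 1.86 and Lpl was not called; with AS replicate 1 and SS replicate 3 omitted it was 3.26. Adipocytes, which also make Lpl, had defining markers at or near 0: Plin1 and Lep had 0 reads in all 6 libraries, and the 4 adipocyte markers together reached at most 1.19 CPM. The cells that gave the Lpl reads were not tested.

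Fabp5, a fatty acid binding protein of macrophages and epidermis (chromosome 3, 10012548 to 10016607), had 105, 39.5 and 36.6 CPM in AS liver against 67.0, 174 and 35.2 CPM in SS liver. The groups overlapped: the lowest library of all 6 was SS replicate 3 and the highest was SS replicate 2. Its log2 change of 0.61 (SE 0.584) became -0.26 without SS replicate 2 and 1.26 without AS replicate 1. Omitting AS replicate 1 together with SS replicate 3 gave 1.67, and Fabp5 was called, with an AS spread that then comes only from the closely similar AS replicates 2 and 3. A processed pseudogene copy, Fabp5l2, is annotated, so reads shared with it can be lost or misplaced in counting.

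The secreted and matrix genes spanned a wide range of differences. Mmp12, the macrophage elastase (chromosome 9, 7344381 to 7369499), had 0.921, 1.29 and 1.23 CPM in AS liver against 5.81, 12.5 and 20.7 CPM in SS liver. The lowest SS library was 4.51 times the highest AS library, and the order of the SS libraries was that of Gpnmb. Its log2 change was 3.50 (SE 0.529), or 2.87 with AS replicate 1 and SS replicate 3 omitted. Mmp1b is annotated on the opposite strand over part of the Mmp12 locus and had 0 reads in all 6.

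Spp1, which encodes osteopontin, a secreted integrin ligand also made by bile duct cells, lies on chromosome 5 (104435118 to 104441050). It had 69.8, 95.7 and 85.2 CPM in AS liver against 219, 102 and 131 CPM in SS liver. The groups came within 1.06-fold of each other, between SS replicate 2 and AS replicate 2. The log2 change was 0.85 (SE 0.311), and without SS replicate 1 it was 0.48. An uncharacterised gene model, Gm42793, overlaps Spp1 on the same strand. The deposited counts have no entry under that name, so the Spp1 count can include its reads. Cholangiocyte markers were highest in the same library: their 6-gene sum was 30.1 CPM in SS replicate 1, 15.8 and 8.61 CPM in SS replicates 2 and 3, and 8.91 to 16.6 CPM in AS. Of the 3 that could be tested none was called by either tool (0 at an unadjusted p under 0.05), and their part in the Spp1 values was not tested.

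Lgals3, galectin-3, a carbohydrate-binding protein of activated macrophages (chromosome 14, 47367751 to 47386160), had 17.6, 12.9 and 13.2 CPM in AS liver against 44.3, 81.9 and 44.8 CPM in SS liver. The groups were apart by 2.52-fold at their nearest, and SS replicate 2 was the highest. Its log2 change was 1.97 (SE 0.316).

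The tetraspanins Cd9 and Cd63 organise membrane complexes, Cd9 at the cell surface and Cd63 mainly in lysosomes and exosomes. Cd63 (chromosome 10, 128900989 to 128912822) had 15.4, 15.8 and 14.0 CPM in AS liver against 35.9, 67.9 and 48.2 CPM in SS liver, and its log2 change was 1.75 (SE 0.291). It varied least of the 10 genes among AS libraries, with an SD of 6.34% of the mean. Cd9 (chromosome 6, 125460266 to 125494791, minus strand) had 35.4, 12.9 and 17.3 CPM in AS liver against 48.0, 62.9 and 48.6 CPM in SS liver. The groups were apart by 1.36-fold at their nearest, and AS replicate 1 was far above the other AS libraries. The log2 change was 1.28 (SE 0.362), and omitting AS replicate 1 together with SS replicate 3 raised it to 1.86, where Cd9 was called on the AS spread of that same pair. Both genes are carried by platelets as well, whose 6 markers summed to 6.68 to 9.49 CPM in AS liver against 12.4 to 23.4 CPM in SS liver, with 0 of 3 tested markers called by either tool (2 higher at an unadjusted p under 0.05); their part in these differences was not tested. Each tetraspanin has an annotated processed pseudogene. Opposite Cd9 lie 2 noncoding genes, neither with an entry under its name in the deposited counts, so without a stated strand setting the Cd9 count can include their reads.

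**Figure D2:**
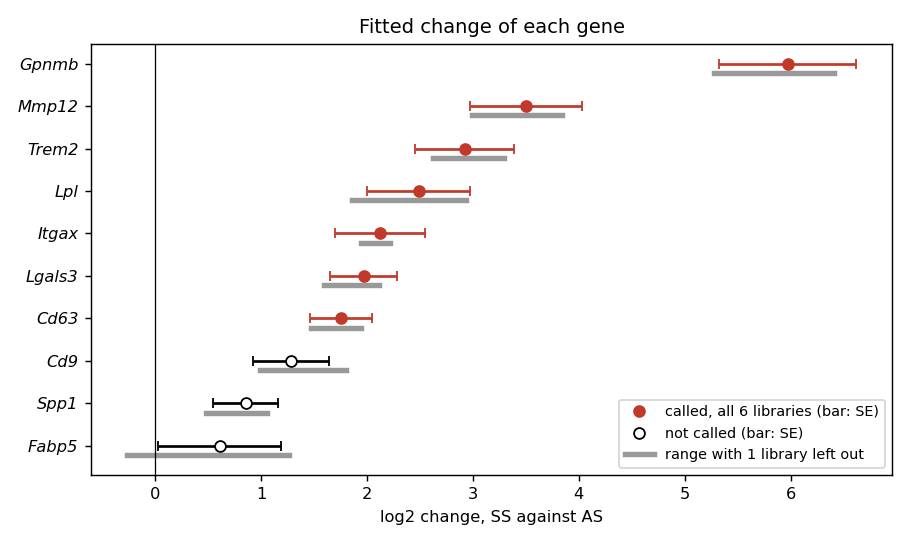
Fitted log2 change of SS against AS for each gene (points, with SE bars; filled red where called with all 6 libraries) and the range over the 6 fits with 1 library omitted (grey bars). All points lie above 0, and only the grey bar of Fabp5 crosses 0, from -0.26 to 1.26.

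The calls rested on few libraries. Mmp12, Trem2, Lgals3 and Cd63 were each called in 2 of the 6 fits with 1 library omitted, those without SS replicate 1 or without SS replicate 3. Lpl was called in 1, the fit without SS replicate 3. The count of members called was 1 without AS replicate 1, AS replicate 2, AS replicate 3 or SS replicate 2, and 1 with AS replicates 2 and 3 summed to a single library. It was 5 with median-ratio size factors, where Lpl (log2 change 2.44) and Itgax (2.08) were not called. It was 9 with AS replicate 1 and SS replicate 3 omitted, a fit in which the AS arm is the closely similar pair of AS replicates 2 and 3 alone. The directions of the 10 log2 changes were the same in every alternative tried except for Fabp5 without SS replicate 2.

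Per kilobase of exon, the levels of most neighbours in the order were not resolved. In AS liver Spp1 led with 50.7 ± 7.90 CPM per kilobase (SD, n = 3), and Fabp5 (16.95 ± 10.9), Cd9 (10.7 ± 5.82), Lgals3 (7.85 ± 1.42), Lpl (6.21 ± 3.04) and Cd63 (4.09 ± 0.259) followed, with no neighbours among these 5 further apart than the larger of their SDs. Itgax, Trem2, Mmp12 and Gpnmb came last, from 0.363 ± 0.0487 down to 0.0544 ± 0.0320 CPM per kilobase. Gpnmb was the lowest of all, and its distance to Mmp12 exceeded their SDs. In SS liver Spp1 still led with 91.5 ± 37.1 CPM per kilobase, and Lpl (34.8 ± 21.5), Lgals3 (30.7 ± 11.6), Cd9 (26.01 ± 4.11), Fabp5 (25.8 ± 20.3) and Cd63 (13.8 ± 4.39) followed, with neighbours among these 5 again within the larger SD. Gpnmb came next with 3.63 ± 2.44, above Trem2 (2.28 ± 0.712), Mmp12 (1.79 ± 1.03) and Itgax (1.60 ± 0.329). Neighbours among these last 4 lay within the larger SD of each other. Lengths are unions of all annotated exons. Per kilobase of coding sequence Fabp5 had the highest mean in AS (149 ± 96.1), followed by Spp1 (94.4 ± 14.7). Lpl had the highest mean in SS (257 ± 159), followed by Fabp5 (227 ± 179). In each genotype these neighbours lay within the larger SD of each other.

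Which SS library held the highest level differed from gene to gene, although Lpl had the highest CPM of the members in every SS library. SS replicate 2 held the highest SS level of 6 members (Trem2, Cd9, Lgals3, Lpl, Cd63 and Fabp5), SS replicate 3 of Gpnmb and Mmp12, and SS replicate 1 of Itgax and Spp1. Of the summed CPM of the 10 genes, Lpl made up 39.4%, 53.3% and 32.2% in SS replicates 1, 2 and 3, against 18.2% to 28.9% in AS. Gpnmb made up 1.52%, 1.56% and 7.31% in SS and 0.0729% to 0.165% in AS. Spp1 ranged from 8.80% to 29.4% in SS and from 20.0% to 43.3% in AS.

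Because macrophage markers were themselves at higher levels in some SS libraries, each gene was also set against the sum of 10 general macrophage and leukocyte markers. That sum was 301 to 370 CPM in AS liver against 317, 811 and 638 CPM in SS liver replicates 1, 2 and 3. In SS replicate 1, 78.5% of records lay outside genes against 66.6% to 69.7% in the other 5 libraries. The part of that share in its values was not tested. SS replicate 1 was within the AS range for the marker sum, while 9 of its 10 members, Fabp5 excepted, stood above every AS library. Single markers split in that library. Ptprc, Fcer1g and Mertk lay above every AS library, Adgre1, Csf1r and Fcgr1 below every AS library, and the others within the AS range. Lyz2 was the largest of the 10 markers, at 137 of the 317 CPM in SS replicate 1. Per 100 CPM of these markers, Gpnmb was 0.156, 0.0522 and 0.109 CPM in AS liver against 3.58, 2.23 and 6.53 CPM in SS liver. Trem2 was 0.592, 0.261 and 0.461 in AS and 3.12, 1.89 and 1.36 in SS on the same scale. The SS libraries lay wholly above the AS libraries for 7 members on this scale (Gpnmb, Mmp12, Trem2, Lpl, Itgax, Lgals3 and Cd63), against 2.38% of all genes tested treated alike. Cd9, Spp1 and Fabp5 overlapped. The 10 genes summed to 0.945, 0.716 and 0.748 times the marker sum in AS and to 2.35, 1.43 and 0.892 times in SS, so that SS replicate 3 lay within the AS range for the sum.

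**Figure D3:**
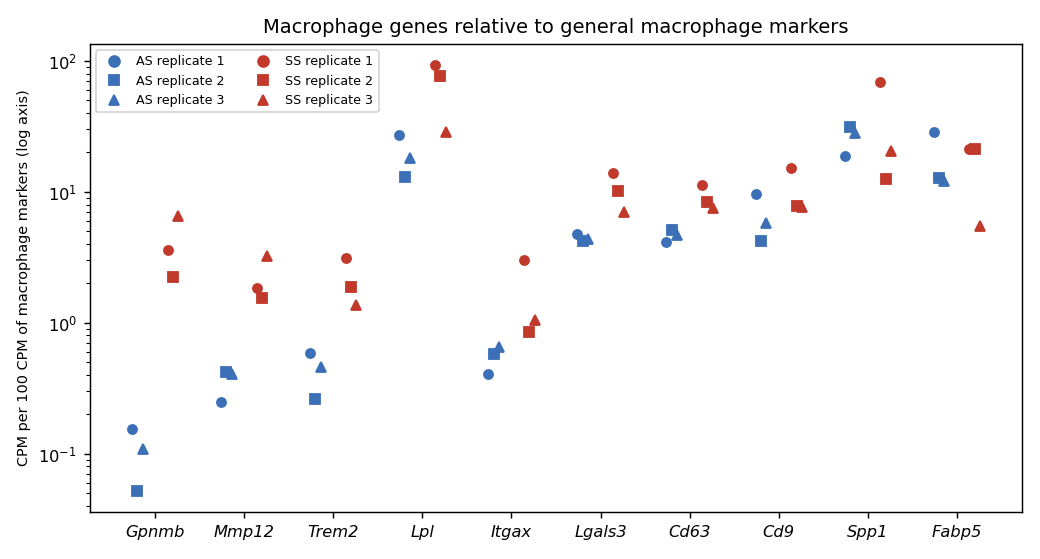
CPM of each gene per 100 CPM of 10 summed general macrophage markers (log axis) in the 3 AS (blue) and 3 SS (red) libraries. The groups stay apart for 7 genes, and Cd9, Spp1 and Fabp5 overlap.

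The genes that work with these 10 were taken from lists of partners, family members and regulators. Of 97 such genes 88 had enough reads to be tested, and 1 was called higher (Atf3) and 0 lower. The share called higher was 1.14%, near the 0.911% over all genes, with 63 fitted values above 0 and a median log2 change of 0.49. Over all genes tested, 56.3% had a fitted value above 0 and 12.1% had all SS libraries above all AS libraries, which the counts of positive genes and of groups apart below are to be read against. Atf3, a bZIP transcription factor of the stress response, had 1.04, 0.644 and 2.53 CPM in AS liver against 12.0, 31.0 and 6.42 CPM in SS liver. All 3 SS libraries stood above the AS libraries, at a fitted log2 change of 3.47 (SE 0.667; edgeR gave an adjusted p of 0.0444), and the call held in 1 of the 6 fits with 1 library omitted, that without SS replicate 3. The log2 change of Atf3 ran from 2.62 to 4.24 over those 6 fits. Atf3 was 1 of 14 transcription factors of macrophages and lysosomes, among them Mitf, Tfeb, Tfe3 and Tfec, of which the other 13 were not called. With AS replicate 1 and SS replicate 3 omitted, 8 partner genes were called higher and 2 lower, again on the spread of AS replicates 2 and 3 alone.

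None of the 8 TREM2 adaptor and signalling genes was called by edgeR or DESeq2 (4 higher at an unadjusted p under 0.05); all 8 had positive fitted changes (median 0.91) and 4 had groups apart. Vav1, an exchange factor downstream of immune receptors, had the lowest p, with 4.50 ± 1.19 CPM in AS liver against 11.2 ± 2.92 CPM in SS liver (SD, n = 3; log2 change 1.32 with SE 0.370, adjusted p = 0.159 by edgeR). Of 26 other genes described in lipid-associated macrophages, 22 were tested and edgeR called none (9 higher at an unadjusted p under 0.05); 18 were positive (median 0.56). Clec7a, the beta-glucan receptor dectin-1, had 13.4, 6.60 and 10.2 CPM in AS liver against 19.4, 46.3 and 34.7 CPM in SS liver (log2 change 1.73 with SE 0.381, adjusted p = 0.0721 by edgeR). Its groups did not overlap, and DESeq2 called it, as it did the scavenger receptor gene Cd36 and the receptor kinase gene Axl, named here for that call.

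The 9 receptors and partners of osteopontin and of the integrins were all positive (median 0.95), and none was called by edgeR or DESeq2 (5 higher at an unadjusted p under 0.05). Cd44, a receptor for osteopontin and hyaluronan, had 17.2, 8.05 and 8.67 CPM in AS liver against 23.1, 35.5 and 24.7 CPM in SS liver (log2 change 1.30 with SE 0.354, adjusted p = 0.147 by edgeR). The 8 cofactors and regulators of lipoprotein lipase all had negative fitted changes, although 1 turned positive with library totals alone as the scaling. Their median was -0.57, opposite in sign to Lpl itself, and none was called by edgeR or DESeq2 (2 lower at an unadjusted p under 0.05). Gpihbp1, which carries the lipase to the capillary wall, had 33.5, 37.7 and 37.3 CPM in AS liver against 22.6, 27.0 and 19.4 CPM in SS liver (log2 change -0.65 with SE 0.248, adjusted p = 0.316 by edgeR). All SS libraries were below the AS libraries for Gpihbp1, a reverse of the pattern of Lpl. The 4 elastin and inhibitor genes tested beside Mmp12 were positive (median 1.03), and none was called by either tool (1 higher at an unadjusted p under 0.05); Eln, its substrate elastin, had 2.53 ± 1.51 CPM in AS liver against 7.32 ± 4.74 CPM in SS liver (SD, n = 3; log2 change 1.50 with SE 0.614, adjusted p = 0.350 by edgeR).

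Close relatives of the members showed no call by edgeR or DESeq2. At an unadjusted p under 0.05, 3 other tetraspanins, 1 fatty acid binding protein and 1 galectin were higher, and 2 fatty acid binding proteins and 1 lipase were lower. Of 10 other tetraspanins tested 6 were positive (median 0.36), and Tspan8 had the lowest p (log2 change 1.84 with SE 0.518, adjusted p = 0.160 by edgeR), with 6.22, 2.26 and 3.35 CPM in AS liver against 23.1, 13.1 and 6.73 CPM in SS liver. Other fatty acid binding proteins went both ways: the log2 change of Fabp2, an intestinal form, was -1.01 (SE 0.357, adjusted p = 0.279 by edgeR). The median of the 4 tested was -0.14, or 0.13 with library totals alone. The list of other galectins (5 tested, among them Lgals3bp, which encodes a galectin-binding protein and not a galectin) had a median of -0.046, or 0.23 with library totals alone. It included Lgals1 at 1.06 (SE 0.397, adjusted p = 0.309 by edgeR), whose SS values of 46.6, 73.1 and 22.1 CPM overlapped with AS at 17.9 to 27.8 CPM. Of the other TREM receptors 2 were tested; Treml4 had 7.86 ± 0.936 CPM in AS liver against 14.8 ± 9.02 CPM in SS liver (SD, n = 3; edgeR adjusted p = 0.429). Lipc, the hepatic lipase of hepatocytes, had 357 ± 22.5 CPM in AS liver against 206 ± 85.2 CPM in SS liver (SD, n = 3; log2 change -0.79 with SE 0.336, adjusted p = 0.369 by edgeR).

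**Figure D4:**
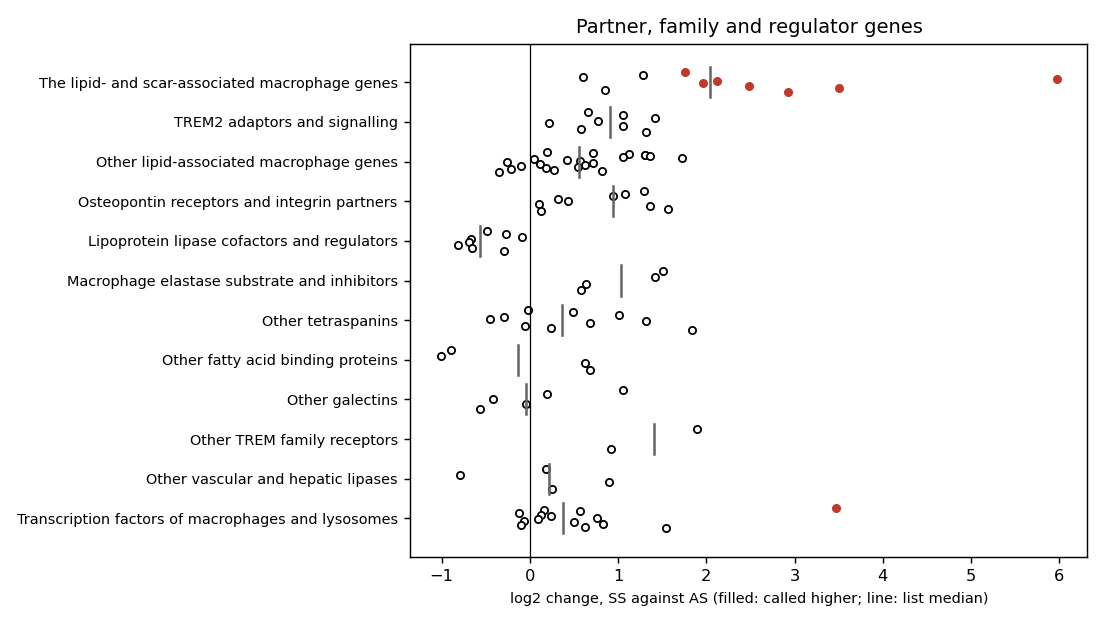
Log2 change of SS against AS for each tested gene (points; filled red where called higher) of the 10 macrophage genes and of the partner, family and regulator lists, with the median of each list (grey line). Outside the first row a single gene, Atf3, is filled, and the 8 lipoprotein lipase regulators all lie below 0 (1 of them above 0 with library totals alone).

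Markers of the cells that could carry these genes moved unevenly. None of the 7 Kupffer cell markers was called by edgeR or DESeq2 (5 higher at an unadjusted p under 0.05, against 1151 of all 12622 genes tested). Their sum was 554 to 699 CPM in AS livers and 690, 1794 and 1081 CPM in SS replicates 1, 2 and 3. Cd5l had the lowest p (log2 change 1.16 with SE 0.366, adjusted p = 0.217 by edgeR). Fitted changes were positive for 6 of the 7, with Timd4 at 0.29 (SE 0.331), and negative for Cd163 at -0.65 (SE 0.396). All 6 monocyte markers were positive (median 1.82). Of these edgeR called 1 higher, Ccr2, and DESeq2 called 2, Ccr2 and Chil3 (4 higher at an unadjusted p under 0.05 in edgeR). Chil3 had 0.131 ± 0.119 CPM in AS liver against 2.62 ± 0.213 CPM in SS liver (SD, n = 3). Ccr2, the receptor that draws monocytes into tissue, had 1.38, 1.61 and 2.04 CPM in AS liver against 8.31, 7.18 and 7.20 CPM in SS liver (log2 change 2.15 with SE 0.420, adjusted p = 0.0462 by edgeR). The SS libraries agreed closely on Ccr2, unlike on Gpnmb, yet its call ended in each of the 6 fits with 1 library omitted. No general macrophage marker of 10 was called by either tool (5 higher at an unadjusted p under 0.05); Cd68, a lysosomal protein of macrophages, had 12.7, 11.3 and 13.0 CPM in AS liver against 12.9, 43.8 and 36.8 CPM in SS liver (log2 change 1.34 with SE 0.405, adjusted p = 0.193 by edgeR), and was called without SS replicate 1, the library whose value lay among the controls.

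For other cell types, the counts of markers called higher by edgeR stand beside 0.911% over all genes tested. Dividing cell markers summed to 8.75 to 11.5 CPM in AS liver against 87.5 to 156 CPM in SS liver, with 7 of 8 called higher, among them the mitotic gene Cdc20 (log2 change 3.78, SE 0.453) with Ccnb1 and Mki67. Erythroid precursor markers summed to 35.6 to 43.5 CPM in AS liver against 224 to 446 CPM in SS liver. Of 7 tested 4 were called higher, among them the red cell anion exchanger gene Slc4a1 (log2 change 4.62, SE 0.549). Fitted changes were positive for 6 of the 7 and negative for Klf1 (-0.86, SE 0.491, not called). Alas2 was the largest part of the sum, with 179, 314 and 267 CPM in SS replicates 1, 2 and 3. Neutrophil markers summed to 7.89 to 8.75 CPM in AS liver against 26.1 to 79.0 CPM in SS liver, with Mpo and Ngp called higher of 5 tested. Stellate cell and fibroblast markers summed to 317 to 387 CPM in AS liver against 425 to 619 CPM in SS liver, with 1 of 8 called higher, the collagen gene Col1a2 (21.5 ± 0.800 CPM in AS against 67.2 ± 14.95 in SS, SD, n = 3). With 1 library omitted, Cdc20 was called in 6 of 6 fits, Slc4a1 in 5, Ccnb1 and Mki67 in 4, Col1a2 and Ngp in 2 and Mpo in 0. Lymphocyte, mast cell and sinusoidal endothelial markers gave 0 calls by edgeR of 4, 1 and 5 tested (1, 0 and 1 higher at an unadjusted p under 0.05), and the hepatocyte markers 0 of 7 (0 at an unadjusted p under 0.05). Of these DESeq2 called 1, the endothelial Lyve1 (log2 change 2.41, adjusted p = 0.0202), whose log2 change in edgeR was 2.48, or 1.03 without SS replicate 3. Lymphocyte markers summed to 3.35 to 4.61 CPM in AS and 4.75 to 16.4 in SS, endothelial markers to 191 to 271 and 197 to 345, and mast cell markers to at most 5.95 CPM in any library. The part of these cells in the values of the 10 genes was not tested.

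**Figure D5:**
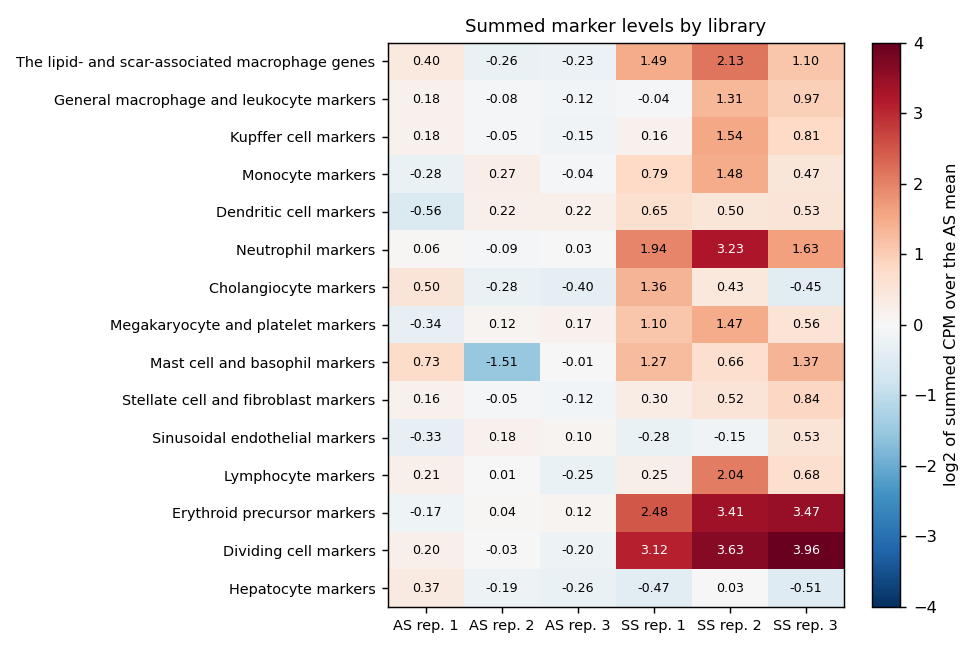
Summed CPM of the 10 macrophage genes and of 14 marker lists in each library, without the adipocyte markers, which were at 0 to 1.19 CPM, as log2 of the ratio to the AS mean (colour and number). In SS replicate 1 the 10 genes stood at 1.49 while general macrophage markers stood at -0.042, and of the plotted lists dividing cell markers were the furthest from the AS mean in all 3 SS libraries (3.12, 3.63 and 3.96).

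Gpnmb was also compared with 9867 other named genes of at least 5 CPM in the higher genotype for likeness of pattern over the 6 libraries. The libraries fall into 2 genotypes, so a difference between genotypes raises the score, and the values are a description. Having the groups apart did not suffice for a high score: Spp1 had an r of 0.632. The AS values of Gpnmb rest on 5, 1 and 4 reads. Lum, a collagen-binding proteoglycan (Pearson r = 0.996 of log2 CPM), Neu3, a ganglioside sialidase (0.995), Col1a2 (0.995), Top2a, a topoisomerase of dividing cells (0.993), and Ccnb2, a mitotic cyclin (0.992), were the closest 5. After removing the genotype means their r was 0.923, 0.909, 0.905, 0.913 and 0.913 in that order. These 5 were picked for a high r over the same libraries. Lum, for example, had 14.1, 11.0 and 10.5 CPM in AS liver against 34.8, 42.2 and 51.8 CPM in SS liver, so its libraries stood in the order of Gpnmb within SS. In all, 103 genes, or 1.04%, had an r of at least 0.95 with Gpnmb. Of the other members Mmp12 was the most like Gpnmb (r = 0.972, and 0.692 after removing the genotype means), whereas Itgax had 0.923 and -0.77 and Fabp5 0.240 and -0.13 on the same 2 measures.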

How the data were processed

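The authors deposited raw read counts per gene symbol, 1 table for each of 6 liver libraries. Per the submitters' processing notes the tools were HISAT2 and HTSeq and the build mm10; versions, annotation and strand setting are not given in the sources used here. Of the alignment records, 66.6% to 78.5% per library stood in 5 counter lines outside genes and were left out. Genes with few reads were removed with filterByExpr (minimum count 10, minimum total 15), which left 12622. The genotypes were compared with edgeR 4.0.16 run under R 4.3.3 (TMM factors, robust quasi-likelihood fit, two-sided F-test, Benjamini-Hochberg over all genes). The SE of a log2 change came from its F statistic, and CPM used the TMM factors. The procedure was tested on simulated data. DESeq2 1.42.0, other scalings, no filter, a replicate block, each library left out, AS replicates 2 and 3 summed, and AS replicate 1 and SS replicate 3 omitted were the alternatives.

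The members, the gene lists and these alternatives were chosen with earlier results of these data known; coding length in place of exon length was chosen after seeing the data. Besides the members, the text names up to 3 called genes of each list (otherwise that with the lowest p) and the 5 genes most like Gpnmb. Added outside that rule were Alb, Tyrobp, Cd36, Axl, Mmp1b and Fabp5l2, and list members named for their role or their values. Some genes the rule picks are not reported here. Gene models and lengths came from GENCODE M21 (GRCm38) and promoters from RefSeq (GRCm38.p6). Lipa and Fabp4 stand in 2 lists each. Of 8 erythroid markers, 7 were matched to the tables.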

Additional observations from a re-analysis of the deposited data

How the results depend on the processing

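With 3 libraries per genotype the number of calls depended on the libraries, the tool and, near the threshold, the scaling, whereas the members' median log2 change moved less. Over the fits that left out 1 library, 22 to 99 genes were called in place of 122, 1 to 6 members in place of 7 and 0 to 1 partner, family and regulator genes in place of 1, and the median log2 change of the members was 1.73 to 2.16 in place of 2.04. The number of genes called was 217 with no filter, 370 by DESeq2, 31 with AS replicates 2 and 3 summed and 662 with AS replicate 1 and SS replicate 3 omitted, where the AS spread comes only from the closely similar AS replicates 2 and 3; the partner genes called higher were then 4, 4, 0 and 8, and 2 with library totals alone. Members called were 1 with AS replicates 2 and 3 summed and 5 with median-ratio size factors, under which Ccr2 and Mpo were not called either. Fabp5, at 0.61, reversed to -0.26 without SS replicate 2, within a range of -0.26 to 1.26 over the fits that left out 1 library. The cause of these differences was not tested. Library totals alone moved the median log2 change of all genes by 0.28, and all 10 members stayed positive.

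Same-numbered libraries of the 2 genotypes share only a number: the correlation of their deviations from the group means was over 0.1 in 1 of 3 pairs. A replicate block gave 460 calls over all genes, 8 members and 7 partner genes higher, and called Cd9 in addition; both libraries of 1 number of 3 correlated best with each other. The level per coding length from RefSeq proteins was not run, and GENCODE coding length was used in its place.

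Low counts limit Gpnmb, Mmp12, Trem2 and Itgax in AS, which rest on 10, 31, 41 and 48 reads over 3 libraries.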
